A study of Mus musculus with 2 samples.

Results

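The inflammatory CC chemokines and their receptor Ccr2 were followed in livers of apoE-KO mice that ate normal chow or the high-Chol diet. The genes were Ccl2, Ccl3, Ccl4, Ccl5, Ccl6, Ccl7, Ccl9, Ccl12, Ccl22 and Ccr2, which are 10 of the 27962 gene names on the arrays and were read by 13 probes. They were picked by name with their diet difference already known, so that difference is given for them as a description, without p-values.

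CC chemokines are small secreted proteins that bind G protein-coupled receptors on leukocytes and direct the cells toward the source of the signal. Ccr2 is carried by inflammatory monocytes, and Ccl2, Ccl7 and Ccl12 are its ligands in the mouse. Ccl3 and Ccl5 act through Ccr1, as do Ccl6 and Ccl9, and Ccl22, a product of macrophages and dendritic cells, binds Ccr4. In the liver, Kupffer cells, endothelial cells, stellate cells and stressed hepatocytes can all release Ccl2, and recruited monocytes add to the macrophage pool.

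All mice were male, on the C57BL/6 background and without apoE, a ligand that carries lipoprotein remnants into cells, so both groups share the deletion and its high plasma Chol. From 10 weeks of age they received normal chow (the control) or the same chow with 1.25% Chol added (the high-Chol diet) for 1 week, and liver RNA was hybridised to one-colour whole mouse genome arrays in 3 independent experiments per diet. The sources used here do not say whether an array holds the RNA of a single mouse, so p-values measure the spread between these arrays. Wild-type mice are not among the arrays, and the diet difference is known for the apoE-KO liver alone.

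Values are the log2 of the background-subtracted spot signal relative to the 75th percentile of the array, so 0 is the signal of a probe at that percentile, and they compare arrays within 1 probe and never 1 probe with another. A probe is called well above background when the scanner software marks its spot so. Between 50.5% and 67.2% of spots were well above background, and the 75th percentile lay at signals of 271 to 373 on slide 1, which held the 3 normal chow arrays and high-Chol array 1, and at 762 and 799 on slide 2, which held high-Chol arrays 2 and 3. Hepatocyte markers were well above background on the arrays (7 of 7), and their summed level was 1882 to 2046 times the 75th percentile under normal chow and 1422 to 1661 under the high-Chol diet. Apoe signal was well above background throughout, at 1.66 to 3.81 under normal chow and 3.18 to 3.56 under the high-Chol diet, and was not called (difference 0.39, limma adjusted p = 0.671). With no wild-type liver and no map of the deleted part to set it against, that probe does not check the genotype.

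Ccl2 (MCP-1), the main attractant of Ccr2-bearing monocytes, separated the diets on every array. Its probe (chr11:82118723-82118782, plus strand, mm7), spotted 10 times per array, read -2.32, -3.24 and -2.62 on the normal chow arrays 1 to 3 and 2.42, 3.22 and 1.37 on the high-Chol arrays 1 to 3. Every high-Chol array lay above every normal chow array, and all 6 were well above background. The means were -2.73 ± 0.47 (SD, n = 3) and 2.34 ± 0.92 (SD, n = 3), a difference of 5.06 on the log2 scale or 33.5-fold. The repeated spots of an array had an SD of 0.07 to 0.16, so the spread within a diet was mostly between arrays. High-Chol array 1, hybridised on the slide of the normal chow arrays, was 5.15 above the normal chow mean, and the slide 2 arrays were 5.02 above it on average.

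Ccl7 (MCP-3) lies next to Ccl2 and was read by 2 probes that gave different pictures. The probes sit 152 bases apart at their starts on the plus strand, at chr11:82128577-82128636 for A_52_P208763 and at chr11:82128729-82128788 for A_51_P436652 (mm7, the build of the array annotation, from which no exon or UTR label was read). The first 30 bases of each are shown because the Ccl7 result depends on which is used.
A_52_P208763: gcatggaagtctgcgctgaagcccatcaga
A_51_P436652: ttctgagaactgttgatgaaatgtgttgat
The probe A_52_P208763, with a GC content of 53.3%, stood well above background on each of the 6 arrays and read -2.01, -1.88 and -1.91 under normal chow and -1.67, -1.34 and -1.37 under the high-Chol diet. The diets did not overlap, but they lay 0.47 apart (1.38-fold, with means of -1.93 ± 0.07 and -1.46 ± 0.18, SD, n = 3 each), and the order turned after a normexp background (-0.15). The probe A_51_P436652, with a GC content of 43.3%, was not well above background on any normal chow array (-5.66, -6.29 and -6.81) and was well above it on all 3 high-Chol arrays (-2.35, -1.69 and -2.94). By that probe, Ccl7 was at least 4.69-fold higher under the high-Chol diet, where the normal chow level is set to the dimmest signal that counts as well above background on each array. The difference measured by it was 3.93 (means -6.25 ± 0.58 and -2.32 ± 0.62, SD, n = 3 each), and it was 3.90 within slide 1. What the 2 probes share or miss of the Ccl7 transcript was not tested.

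Ccl12 (MCP-5), the third Ccr2 ligand (probe at chr11:82184783-82184842, plus strand, mm7), was dim. It read -5.81, -6.01 and -5.99 under normal chow, on no array well above background. On the high-Chol diet it read -4.49, -4.23 and -5.02, well above background on arrays 1 and 2. The diets did not overlap and differed by 1.36 (means -5.94 ± 0.11 and -4.58 ± 0.40, SD, n = 3 each), the order turned after a normexp background (-0.64), and no fold is given because the dimmest detectable signal under normal chow was above the mean under the high-Chol diet.

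Ccr2, the receptor of these ligands, also had 2 probes, and only A_51_P245989 detected it. The probes lie 571 bases apart at chr9:123827135-123827194 (A_51_P245989) and chr9:123827706-123827765 (A_52_P580853, designed on a different transcript record), plus strand, mm7, and their first 30 bases are given because they mark which stretch of the locus carried signal.
A_51_P245989: gaagcagggacagaattcttgctttgaaaa
A_52_P580853: aagtaaatatgcaaaggagagaagttagag
By A_51_P245989, Ccr2 read -5.31, -4.76 and -4.19 under normal chow, well above background on array 3 alone. It read -2.29, -1.56 and -1.34 under the high-Chol diet, well above background on all 3. The diets did not overlap, and the means of -4.75 ± 0.56 and -1.73 ± 0.50 (SD, n = 3 each) differed by 3.02. The ratio of these means was 8.13-fold, in which 2 of the 3 normal chow values are at background. Within slide 1 the difference was 2.46. The probe A_52_P580853 was not well above background on any array, its values overlapped between the diets (-7.26 to -5.68 and -7.02 to -5.21), and no fold is given for it.

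**Figure D1:**
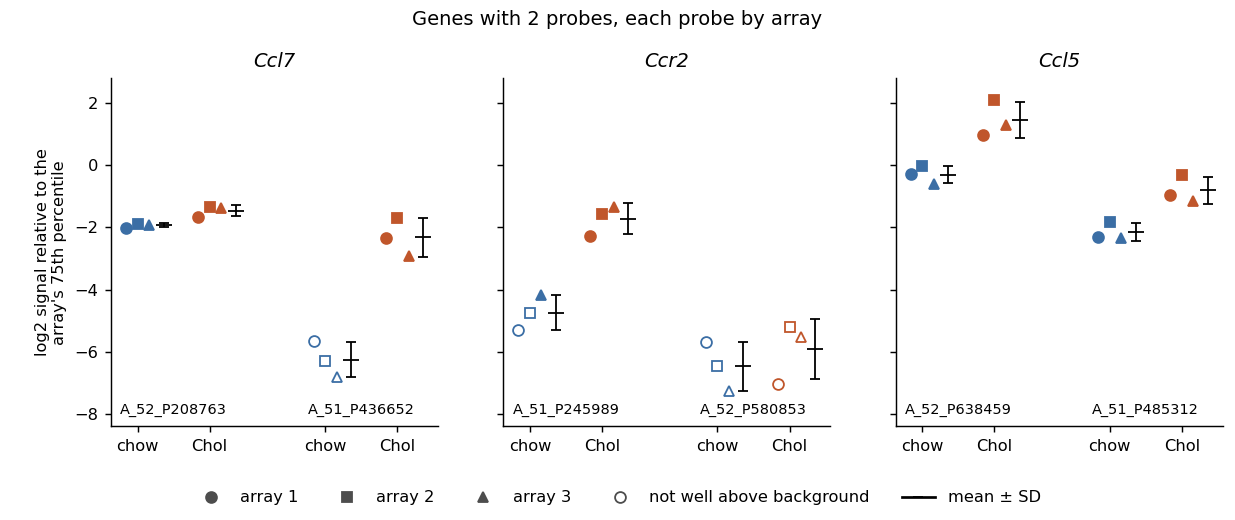
Log2 signal relative to the 75th percentile of the array (y axis) for each probe of Ccl7, Ccr2 and Ccl5 under normal chow (chow, blue) and the high-Chol diet (Chol, orange), with the mean ± SD (n = 3) beside the points and open symbols where a spot was not well above background. Both Ccl5 probes separated the diets, Ccl7 differed by 0.47 on one probe and 3.93 on the other, and 1 of the 2 Ccr2 probes was at background throughout.

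Ccl3 (MIP-1alpha), made by activated macrophages, was not well above background under normal chow and was on all 3 high-Chol arrays. Its probe (chr11:83717761-83717820, minus strand, mm7) read -5.59, -6.20 and -5.36 under normal chow and -1.69, -0.61 and -1.25 under the high-Chol diet. There was no overlap, and Ccl3 was at least 10.35-fold higher under the high-Chol diet (measured means -5.72 ± 0.44 and -1.18 ± 0.55, SD, n = 3 each). Within slide 1 the measured difference was 4.03.

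Ccl4 (MIP-1beta), the neighbour of Ccl3 that is usually induced with it, was read at chr11:83734455-83734514 (plus strand, mm7). Its values were -4.39, -4.23 and -4.24 under normal chow, well above background on arrays 2 and 3. They were -0.50, 0.38 and -0.35 under the high-Chol diet, well above background on all 3. The lowest high-Chol array was 3.74 above the highest normal chow array. The means of -4.29 ± 0.09 and -0.15 ± 0.47 (SD, n = 3 each) differed by 4.13, or 17.5-fold, with 1 of the 3 normal chow values at background.

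Ccl5 (RANTES), a product of T cells, NK cells and macrophages, was well above background on all 6 arrays by both of its probes. The probe A_52_P638459 (chr11:83595699-83595758, minus strand, mm7) read -0.30, -0.03 and -0.59 under normal chow and 0.96, 2.08 and 1.28 under the high-Chol diet. The diets did not overlap and differed by 1.75, or 3.36-fold (means -0.31 ± 0.28 and 1.44 ± 0.58, SD, n = 3 each). The probe A_51_P485312 gave a difference of 1.34, or 2.54-fold, again without overlap, so the Ccl5 probes put the diets in the same order.

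Ccr1, a receptor of Ccl3 and Ccl5, was not well above background on any array, so no diet difference can be read for it.

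Ccl6 (C10), a chemokine of myeloid cells (probe at chr11:83658400-83658459, minus strand, mm7), read 1.87, 1.67 and 1.58 under normal chow and 3.39 and 3.56 on high-Chol arrays 1 and 2. The spot on high-Chol array 3 was marked as an outlier and left out, so the value rests on 5 arrays, all well above background. The 2 high-Chol values lay above the normal chow values, with means of 1.71 ± 0.15 (SD, n = 3) and 3.47 ± 0.12 (SD, n = 2) and a difference of 1.76, or 3.39-fold.

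Ccl9 (MIP-1gamma), which lies between Ccl5 and Ccl6 (probe at chr11:83644626-83644685, minus strand, mm7), did not separate the diets. Its spot stood well above background on each of the 6 arrays and read 3.64, 3.76 and 3.77 under normal chow and 4.05, 3.37 and 3.42 under the high-Chol diet. The highest value and the lowest both came from the high-Chol diet, and the means of 3.72 ± 0.07 and 3.61 ± 0.38 (SD, n = 3 each) differed by -0.11. The sign of that difference was not stable, since it was 0.32 within slide 1, -0.33 for the slide 2 arrays and 0.26 after a normexp background. Ccl22 was not well above background on any array (-7.46 to -5.87 under normal chow and -7.42 to -6.81 under the high-Chol diet), and no order of the diets can be read for it.

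**Figure D2:**
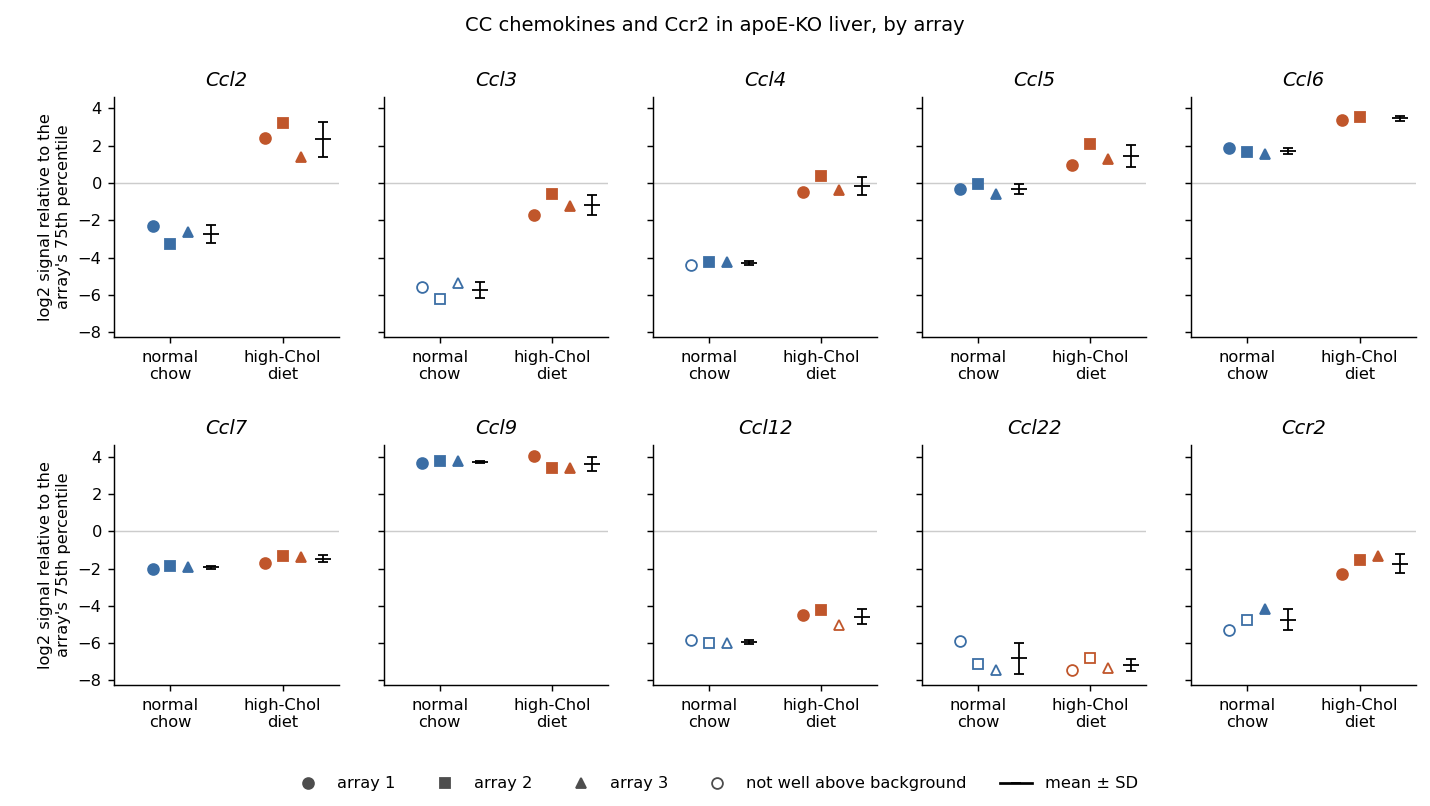
Log2 signal relative to the 75th percentile of the array (y axis, the same range in each panel) for the 10 genes on the 3 normal chow (blue) and 3 high-Chol (orange) arrays, with the mean ± SD beside the points and open symbols where a spot was not well above background. Ccl2, Ccl3, Ccl4, Ccl5 and Ccr2 separate the diets widely, Ccl9 and Ccl22 overlap, and Ccl6 has 2 high-Chol points.

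Over the 10 genes, each by its brightest probe, the median difference was 1.76, beside a median of -0.02 over the 16727 genes tested and -0.09 over all 27961 genes without a filter on dim probes. Of the 9 with a value on all 6 arrays, 7 were higher on every high-Chol array than on every normal chow array, where 7.92% of the 27661 genes with 6 values were, no filter applied (9.87% were lower on every high-Chol array). Of the 10, 4 were more than 4-fold higher, beside 0.823% of all genes without the filter and 0.974% of the genes tested. Only probes that stood well above background on the full set of arrays of one diet were tested, a filter that 8 of the 10 passed and Ccl12 and Ccl22 did not. Ccl2, Ccl3, Ccl4, Ccl5, Ccl6 and Ccr2 were called higher by limma (6 of 8) and 0 were called lower, beside 2.69% of all genes tested called higher and 0.227% called lower (2.92% in either direction). Ccl3, Ccl4 and Ccr2 passed the filter through the high-Chol arrays alone, so a higher value there was a condition of being tested, and of the 5 above background on every array 3 were called (2.06% of all such genes were called higher). With slide as a block 1 of them was called and after a normexp background 0. Nothing is read from these counts, which are no test of the genes, since they were chosen with this contrast known. High-Chol array 2 gave the highest of the high-Chol values in 7 of the 9 genes with 6 values. Within slide 1 alone, 9 of the 10 genes were higher on high-Chol array 1 than the normal chow mean. Among them were Ccl9 (0.32), whose diets overlap, and Ccl12, at background on every normal chow array. That count rests on 1 high-Chol array, and the share of all genes beside it was not taken.

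The diet difference depended on how background was treated. Scaling to the median, quantile normalization and slide as a block left Ccl2, Ccl3, Ccl4, Ccl5, Ccl6 and Ccr2 higher under the high-Chol diet by over 1.2 on the log2 scale. The normexp background with an offset of 50 kept them higher but with differences of 2.99 for Ccl2, 0.40 for Ccl3, 0.95 for Ccl4, 1.22 for Ccl5, 1.64 for Ccl6 and 0.17 for Ccr2. That offset is larger than the normal chow spot signals of Ccl3, Ccl4 and Ccr2, which ranged from 3.77 to 17.8.

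**Figure D3:**
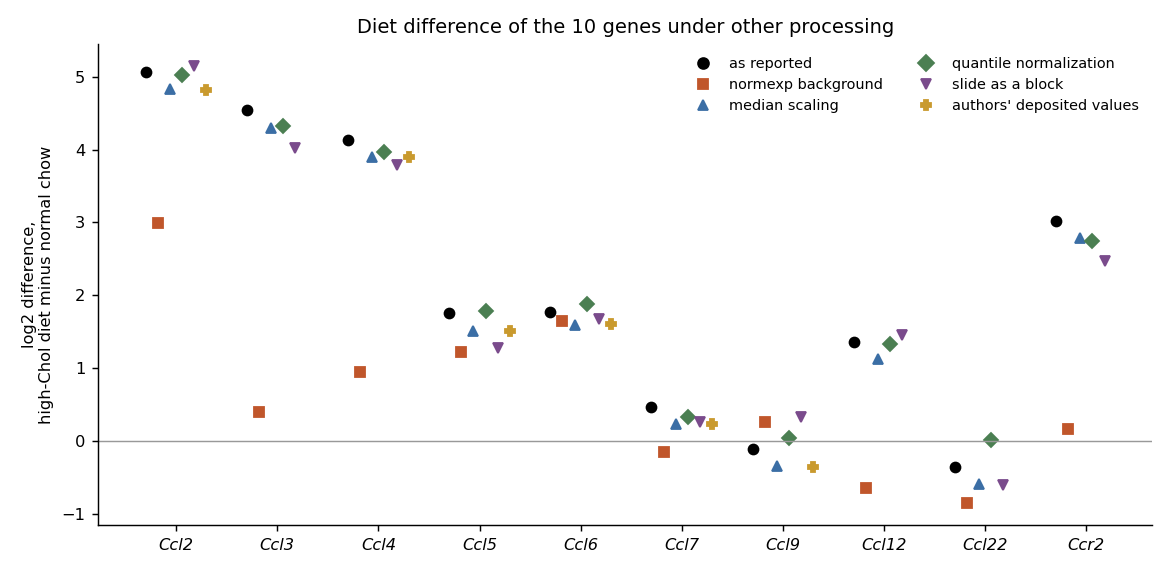
Log2 difference of the high-Chol diet minus normal chow (y axis) for each of the 10 genes by its brightest probe, as reported and under 5 other ways of making the values; genes without a point for the authors' values are not in that table. The normexp background gives the lowest point for Ccl2, Ccl3, Ccl4, Ccl5, Ccl7, Ccl12, Ccl22 and Ccr2, while the other settings lie together for the genes that differ widely.

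The ligand genes of chromosome 11 stand in 2 runs, and the diet difference changed from one neighbour to the next. In the order of the RefSeq genes (GRCm38.p6), the first run is Ccl2, Ccl7, Ccl11, Ccl12, Ccl8 and Ccl1, and the second, with 25 coding genes between, is Ccl5, Ccl9, Ccl6, Ccl3 and Ccl4. In the first, Ccl11 and Ccl1 were not well above background on any array and Ccl8 was on 1. In the second, Ccl9 overlapped between the diets while both of its neighbours were over 3-fold higher under the high-Chol diet. On chromosome 9, Ccr2 stands next to Ccr3, which was not called.

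**Figure D4:**
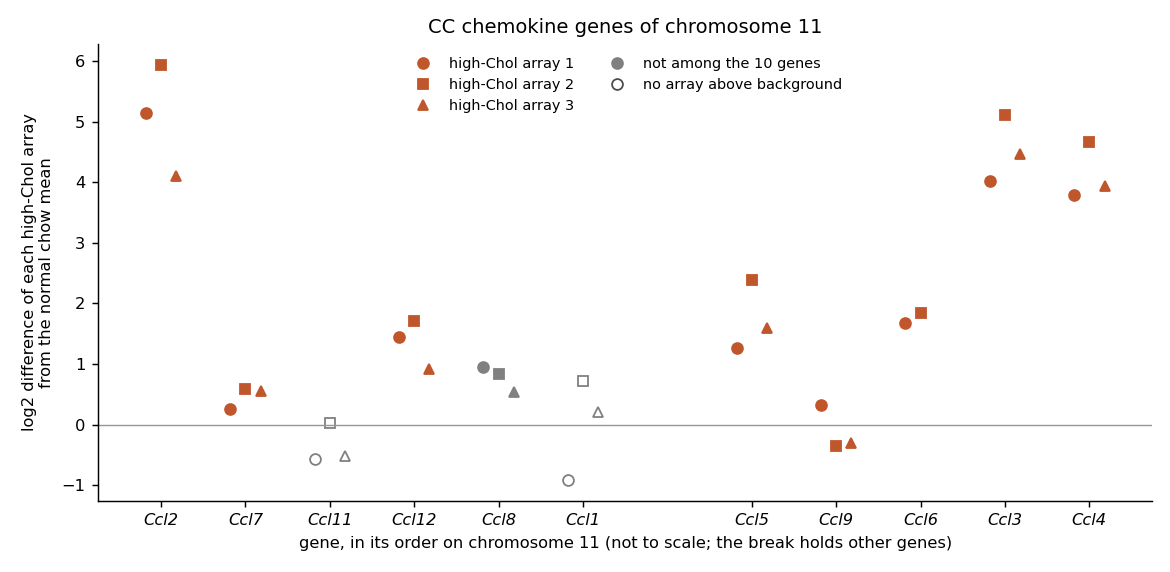
Difference of each high-Chol array from the normal chow mean on the log2 scale (y axis) for the 11 CC chemokine genes of chromosome 11 in their order (x axis, not to scale), with the brightest probe of each gene. Ccl2, Ccl3 and Ccl4 lie above 3.7 on all 3 arrays, Ccl9 lies on both sides of 0, and grey marks the genes not among the 10.

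Promoter sequence was read for Ccl3 and Ccl9, genes of the same run with different values, and for Ccl12, which has TATAAA near its start. The RefSeq table matched 6 of the 10 genes (Ccl3, Ccl6, Ccl9, Ccl12, Ccl22 and Ccr2), and the 250 bases before the start are printed on the strand of the gene (GRCm38.p6), 5′ to 3′, with the motifs found on either strand in capitals.
Ccl3, chr11:83649379-83649628, minus strand: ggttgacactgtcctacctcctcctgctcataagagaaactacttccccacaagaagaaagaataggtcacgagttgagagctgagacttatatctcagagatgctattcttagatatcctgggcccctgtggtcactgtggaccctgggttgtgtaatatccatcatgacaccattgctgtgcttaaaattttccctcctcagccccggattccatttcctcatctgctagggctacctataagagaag
Ccl9, chr11:83578637-83578886, minus strand: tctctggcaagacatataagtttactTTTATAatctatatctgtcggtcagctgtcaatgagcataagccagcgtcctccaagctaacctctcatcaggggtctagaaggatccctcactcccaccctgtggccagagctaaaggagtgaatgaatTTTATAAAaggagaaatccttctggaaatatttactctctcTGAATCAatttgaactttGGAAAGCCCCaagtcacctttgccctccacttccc
Ccl12, chr11:82101595-82101844, plus strand: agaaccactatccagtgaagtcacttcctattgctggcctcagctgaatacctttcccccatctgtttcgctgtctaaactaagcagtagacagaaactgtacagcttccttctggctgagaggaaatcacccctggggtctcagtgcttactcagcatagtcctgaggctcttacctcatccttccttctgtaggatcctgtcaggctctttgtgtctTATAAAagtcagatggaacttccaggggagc
Both strands were searched for the NF-kB consensus, TGANTCA (the AP-1 site, which reads the same on both strands) and for TATAAA. Ccl9 held the NF-kB consensus on the strand opposite the gene 26 to 35 bases before the start and TGANTCA 47 to 53 bases before it. Its TATAAA stood at 87 to 92 bases, overlapping a copy on the other strand, and a further copy on the other strand stood at 219 to 224. Ccl12 held TATAAA 26 to 31 bases before the start, and none of the 3 motifs was found in the Ccl3, Ccl6, Ccl22 or Ccr2 window. Of 32851 promoter windows of this length, 3.9% held the NF-kB consensus, 6.75% TGANTCA and 12.4% TATAAA. A match is a stretch of letters and was not tested as a site, and the windows leave out enhancers and all sequence after the start.

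In the rest of the CC family no gene passed the adjusted threshold. Of the other CC genes, 11 ligands and 13 receptors or decoy receptors were on the arrays and 16 of these 24 were tested. By limma with Benjamini-Hochberg adjustment 0 were called, while at an unadjusted p under 0.05 4 were higher and 2 lower, beside 12.3% and 8.83% of all genes. The methods' t-test put 4 higher and 1 lower past that threshold, beside 8.38% and 8.29% of all genes. The median difference was 0.00 for the ligands and 0.13 for the receptors.

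Among the ligands, Ccl24 (eotaxin-2), which attracts eosinophils, read 1.90, 1.29 and 1.27 under normal chow and 2.14, 2.55 and 2.39 under the high-Chol diet, without overlap but short of the threshold (difference 0.87, limma adjusted p = 0.102). Ccl19, a ligand of Ccr7 that guides T cells and dendritic cells, had a difference of 0.70 without overlap (adjusted p = 0.125). Ccl28, an epithelial chemokine, had a difference of -0.76 (adjusted p = 0.183), and Ccl25, a ligand of Ccr9, one of -0.26 without overlap (adjusted p = 0.319). Ccl17, which shares the receptor Ccr4 with Ccl22, gave -0.24, and Ccl27 gave 0.02 and Ccl21c 0.00, both from families of near-identical genes whose probes may read several copies.

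Among the receptors, Ccrl2, a receptor-like protein that presents chemerin, had a difference of 1.08 without overlap (adjusted p = 0.102) and Darc, a decoy that binds chemokines on endothelium and red cells, one of 0.99 without overlap (adjusted p = 0.0906). Ccr7 gave 0.70, Ccr3 0.34, Ccr1l1 0.13, the decoy Ccbp2 -0.03 and Ccr9 -0.19, all with overlapping diets. Ccr6 gave -0.50 (adjusted p = 0.213) and the decoy Ccrl1 -1.34 (adjusted p = 0.302, 95% interval -2.96 to 0.29), both lower without overlap. The Ccrl1 value rests on high-Chol array 2 (-6.42, against -3.89 and -4.05 on the others), being -0.52 without that array and -0.44 with slide as a block. Ccr1, Ccr8 and Ccr10 were not well above background on any array, and Ccr4 was on 2 arrays. Under another scaling or background the sign turned for Ccl21c, Ccl27, Ccr3, Ccr7 and Ccr1l1, and with slide as a block for Ccl27, Ccr3, Ccr1l1, Ccr9 and Ccbp2.

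**Figure D5:**
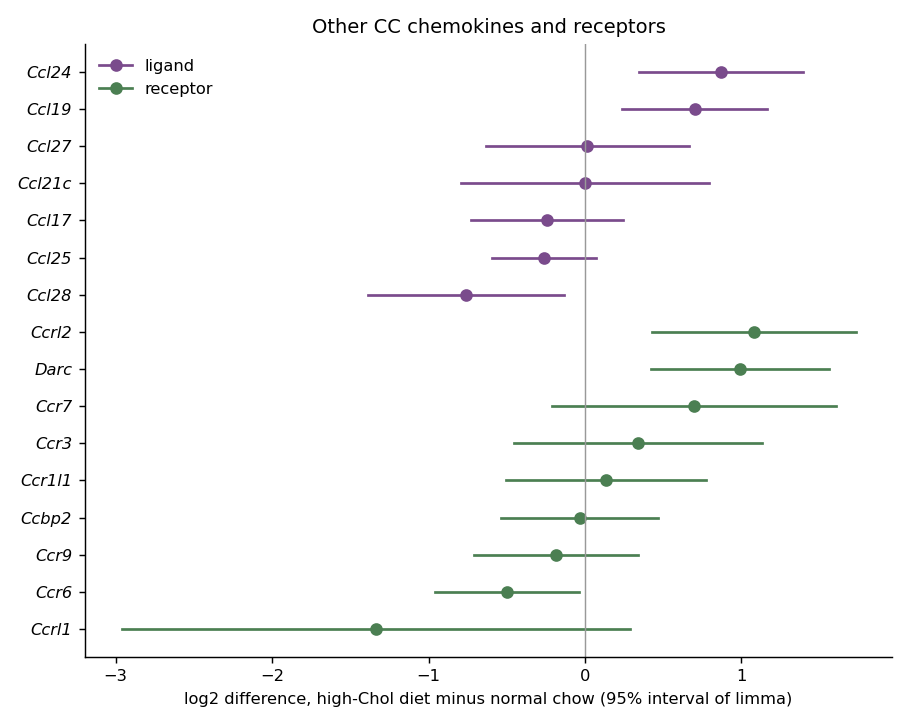
Log2 difference of the high-Chol diet minus normal chow (x axis) with its 95% limma interval for the 7 other CC ligands (purple) and 9 other CC receptors (green) that were tested. The intervals of Ccl24, Ccl19, Ccrl2 and Darc lie above 0 and those of Ccl28 and Ccr6 below it, and 0 genes passed the adjusted threshold.

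Inside the cell, CC receptors signal through Gi proteins, Rac and protein kinases, and 3 of the 14 tested genes of that list rose under the high-Chol diet and 0 fell (list median 0.25), beside 2.69% of all genes tested called higher and 0.227% called lower. They were Gng2, a G protein gamma subunit (difference 1.40, limma adjusted p = 0.0137), Rac2, the Rac of blood cells (1.27, adjusted p = 0.0123), and Dock2, which activates Rac in leukocytes (1.15, adjusted p = 0.0187). Dock2 passed the filter through the high-Chol arrays alone, and with slide as a block 0 of these were called (adjusted p = 0.154, 0.12 and 0.137). The other 11 were not called, among them Vav1 (1.23, adjusted p = 0.0939), Pik3r5 (0.89, adjusted p = 0.238), Lyn (0.23), Gnai2 (0.12), Rac1 (-0.20) and Ptk2b, a kinase downstream of calcium (-1.03, adjusted p = 0.19).

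Of the NF-kB genes and the cytokines that induce CC chemokines, 6 of 15 rose and 0 fell (list median 0.72), beside the same 2.69% and 0.227%, and of the 14 above background on every array 5 rose (2.06% of all such genes did). Tnf, which induces Ccl2 in many cells, was not well above background on any normal chow array and was at least 3.74-fold higher under the high-Chol diet (measured difference 2.78, limma adjusted p = 0.00246). It entered the test through the high-Chol arrays alone, a filter that its difference itself decided. Il1b, a cytokine with the same action, had a difference of 2.02 (adjusted p = 0.0199). Tnfaip3 (A20), a feedback inhibitor that NF-kB induces, had a difference of 2.27 (adjusted p = 0.00639), and Relb, a subunit of the alternative pathway, one of 1.80 (adjusted p = 0.0165). With slide as a block Tnfaip3 (adjusted p = 0.0911), Relb (0.171) and Il1b (0.218) lost the call. Rela, Chuk and Ikbkb, whose activity is set mainly after translation, were not called (0.03, -0.19 and -0.18). Nfkbia (0.11), Bcl3 (-0.03), Nfkb1 (0.72) and Nfkb2 (0.94) were not called either. After a normexp background 0 of these genes were called, the sign turned for Tnf (-0.19) and Dock2 (-0.29), and the differences were 1.17 for Tnfaip3, 0.77 for Relb, 0.47 for Il1b, 0.79 for Rac2 and 0.54 for Gng2.

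Markers of liver and blood cell types were read beside the 10 genes, and each count of called markers stands against the 2.69% of all genes tested that were called higher. In whole liver RNA, more cells of a type and more RNA per cell cannot be told apart. Of the 8 tested macrophage markers 8 had a positive difference and 3 were called higher (Lyzs 1.78, Cd68 1.74 and Mpeg1 1.01), with a list median of 0.77 and Csf1r (0.28) and Mertk (0.07) among those not called. The summed level of the tested markers with 6 values was 76.5 to 96.0 times the 75th percentile under normal chow and 192 to 292 under the high-Chol diet, and without Lyzs, the largest term, 24.3 to 28.0 and 43.8 to 51.6. Of the 9 listed, Itgam was not well above background on any array. Of 6 Kupffer cell markers, 2 were called higher (Marco 1.83 and Cd5l 1.42), with a list median of 0.72 and summed levels of 105 to 117 and 241 to 281 (37.7 to 49.2 and 82.5 to 95.8 without Cd5l).

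Of 7 tested monocyte markers, 3 were called higher (S100a4 2.53, Chi3l3 2.46 and F13a1, at background on every normal chow array and at least 3.40-fold higher), with summed levels of 7.94 to 10.0 under normal chow and 14.9 to 17.4 under the high-Chol diet and a list median of 1.84. All 7 were higher without overlap, beside 11.9% of the genes tested with 6 values. F13a1 and Cx3cr1 of these 7 passed the filter through the high-Chol arrays alone. Of 5 tested neutrophil markers (list median 2.51) 3 were called higher (S100a8 3.21, S100a9 2.90 and Retnlg, at background on every normal chow array and at least 3.76-fold higher), with summed levels of 1.66 to 1.84 and 9.70 to 16.01 (0.318 to 0.393 and 1.25 to 2.58 without S100a9 and the markers not tested), while Ngp, Camp and Elane were not well above background on any array. Of 6 dendritic cell markers (list median 0.89) 3 were called higher (Itgax 3.27, H2-Ab1 1.58 and Cd74 1.37), with summed levels of 7.78 to 8.60 and 20.0 to 27.6 and Cd209a at background. The Itgax difference was 1.77 when its probes were averaged. The other tested dendritic cell markers, Flt3 (-0.26), Xcr1 (0.39) and Clec9a (0.40), were not called. Of 6 NK cell markers (list median 1.26) 2 were called higher (Klrd1 1.59 and Nkg7 1.18), with summed levels of 0.431 to 0.560 and 0.955 to 1.67 and Ncr1 at background. Among the called markers, F13a1, Retnlg, Itgax and Klrd1 entered the test through the high-Chol arrays alone, and among the markers above background on every array the called counts were 2 of 5 for monocytes, 2 of 3 for neutrophils, 2 of 3 for dendritic cells and 1 of 2 for NK cells, beside 2.06% of all such genes. After a normexp background the sign turned for F13a1 (-0.24), Retnlg (-0.22) and Klrd1 (-0.09), and the differences were 1.07 for S100a8, 1.03 for Chi3l3, 0.48 for Itgax and 0.0048 for Nkg7. The differences were then 1.78 for S100a4, 1.70 for H2-Ab1, 1.495 for Cd74 and 2.62 for S100a9.

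In the remaining lists few genes passed. T cell markers (7 tested) had a median difference of 0.82, with 6 positive and 4 higher without overlap (11.9% of the genes tested with 6 values were), and 0 called. Of those without overlap, Cd3d, Cd3g and Lck entered the test through the high-Chol arrays alone. Of the 4 T cell markers above background on every array, only Thy1 separated the diets. B cell (5 tested, median 0.61), endothelial (6, median 0.18), cholangiocyte (5, median -0.47) and hepatocyte (7, median -0.30) markers also had 0 called in either direction, and of 7 stellate cell markers (median 0.37) Col1a1 was called higher (1.04, or 0.54 after a normexp background). The summed endothelial level was 29.4 to 33.4 under normal chow and 29.8 to 32.8 under the high-Chol diet (8.65 to 10.5 and 10.8 to 12.1 without Clec4g, the largest term), and that of T cell markers was 1.51 to 1.52 and 1.78 to 2.44. Cholangiocyte markers summed to 14.0 to 17.0 under normal chow and 9.64 to 12.8 under the high-Chol diet. Without Spp1, the largest term, the sums overlapped (1.095 to 1.239 and 0.8546 to 1.131). With slide as a block, the adjusted p was under 0.05 for Chi3l3 (limma adjusted p = 0.0452) and for Tnf, which had entered through the high-Chol arrays alone (0.0433), among the list genes named here, and after a normexp background 0 genes were called. The part of these cell markers in the chemokine values was not tested.

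Across the arrays, of the members well above background on all 6, Ccl6 had a Pearson's r with Ccl2 of 0.994 (over 5 arrays), Ccl5 of 0.930, Ccl7 of 0.864 and Ccl9 of -0.248. Ccl3 (r 0.982), Ccl4 (0.982), Ccl12 (0.991) and Ccr2 (0.918) were at background on 3, 1, 4 and 2 of the 6 arrays, so their r rests partly on values with no measured order, and they are not ranked. Ccl22 was at background throughout and is left out. The arrays fall into 2 diets, so these values mostly describe the diet difference, and they carry no test. Of 14042 other genes well above background on all 6 arrays, 248 had r above 0.95 with Ccl2. The highest were Slc16a3 (0.997), a lactate transporter, Prkar1a (0.997), a regulatory subunit of protein kinase A, Pkm2 (0.997), a pyruvate kinase, Cd97 (0.996), an adhesion receptor of leukocytes, and 5430435G22Rik (0.996). Ccr2 is itself at background on 2 normal chow arrays, so r with it rests partly on values with no measured order. The 5 genes picked by that r are named without a ranking: Anxa3 (0.994), an annexin, Axl (0.990), a receptor kinase of macrophages, Cd84 (0.990), a leukocyte surface protein, LOC384622 (0.990) and 2810022L02Rik (0.996). Prkar1a shows that r does not carry size, since its diet difference was 0.18 against 5.06 for Ccl2.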

How the data were processed

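Liver RNA was read on 6 one-colour arrays, 3 per diet. The authors deposited the scanner output, whose spot intensity values were extracted and background-subtracted by Agilent Feature Extraction (9.5 on slide 1 and 9.1 on slide 2, per the file headers; 9.1 per the labels) and were not normalized between arrays. A series table of log2 values, with 1 column per diet, was also deposited, made in Gene Spring GX with the settings not given in the sources used here. Those log2 values, compared here with the scanner output, keep the direction of high-Chol diet minus normal chow, and for the 6 of the 10 genes they hold the differences lay within 0.0104 of those after median scaling. The scaling the authors chose is not named in the sources used here.

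Here the background-subtracted signal was put on a log2 scale and the 75th percentile was removed, taken over the 43379 non-control spots of each array. The 1639 control spots and the outlier spots (75 to 196 per array) were left out, spots of a probe were averaged, and each gene was read by its brightest probe. A probe was kept when every array of a diet had it well above background. The comparison used lmFit and eBayes of limma 3.58.1 (R 4.3.3), without a covariate, with Benjamini-Hochberg adjusted p under 0.05 over 16727 genes, a step tested on simulated data. The number of arrays limits the precision. A lower bound on a fold sets each array of the dimmer diet to the higher of its own value and the dimmest signal well above background.

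The 10 genes and the gene lists were chosen with earlier results of these data known. Named genes are all 10 with each probe, up to 4 called genes per list with the largest differences, the tested CC ligands and receptors, the 5 genes most like Ccl2 and Ccr2, and Apoe. Genes named outside this rule (those at background, the genes of the signalling lists that were not called) were picked once their values were known. Alternatives tried were slide as a block, averaging the probes of a gene, median scaling, quantile normalization, no filter, a filter for all 6 arrays, a normexp background (offset 50), leaving out each array, the methods' t-test, and the authors' values. The dimmer probe of a gene was added after seeing the data. Gene names follow the array design, probe positions are of mm7, and promoters come from RefSeq (GRCm38.p6). Tables and plots used data.table (version 1.17.8), pandas 2.3.3, numpy 2.4.6 and matplotlib 3.10.9 in Python 3.11.15. Real-time RT-PCR and lipid data were not analysed here, and some single genes are not reported.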

Additional observations from a re-analysis of the deposited data

How the results depend on the processing

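No paired analysis was possible because the title of each diet names replicates 1, 2 and 3 together and ties no array to a number. Over all genes 488 were called. That count was 0 after a normexp background (at an unadjusted p under 0.05, 267 higher and 39 lower), 26 without the filter on dim probes, 11 with slide as a block and 2789 by the methods' t-test, of which 5 (4 higher and 1 lower) passed after Benjamini-Hochberg adjustment. It ranged from 42 (without normal chow array 2) to 3943 (without high-Chol array 1, where diet and slide cannot be told apart) when 1 array was left out. The median difference of the 10 genes was 0.33 after normexp and 1.55 to 1.92 under the other settings that kept all 10. Of the macrophage markers, 0 were called after normexp, without the filter and with slide as a block, 2 with median scaling, and 1 to 5 when 1 array was left out. By the methods' t-test 5 of them had an unadjusted p under 0.05. Of the other CC genes, 1 was called after averaging the probes of a gene and 0 to 4 when 1 array was left out, while 5 had an unadjusted p under 0.05 by the methods' t-test. Of the 10 genes, limma called 0 after normexp, 2 without the filter, 1 with slide as a block and 3 to 7 when 1 array was left out.

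The sign turned after normexp for Ccl7 (-0.15), Ccl9 (0.26), Ccl12 (-0.64), Ccl21c (-0.39), Ccr3 (-0.72), Ccr7 (-0.69), Ccr1l1 (-0.35), Dock2 (-0.29), Tnf (-0.19), F13a1 (-0.24), Klrd1 (-0.091) and Retnlg (-0.22), with median scaling for Ccl21c (-0.24), Ccl27 (-0.22) and Ccr1l1 (-0.10), with quantile normalization for Ccl9 (0.041), Ccl22 (0.0060), Ccl21c (-0.21) and Ccr1l1 (-0.042), and with slide as a block for Ccl9 (0.32), Ccl27 (-0.34), Ccr3 (-0.20), Ccr9 (0.24), Ccr1l1 (-0.48) and Ccbp2 (0.042). When 1 array was left out, Ccl9 ranged from -0.33 to 0.0087, Ccl22 from -0.68 to 0.12, Ccl21c ranged from -0.34 to 0.22, Ccl27 from -0.19 to 0.26, Ccr9 from -0.40 to 0.0070, Ccr1l1 from -0.030 to 0.44 and Ccbp2 from -0.18 to 0.18. The normexp offset of 50 raises dim signals by construction and raises them more, relative to the 75th percentile, on the arrays where that percentile is lower. The normexp setting also started from the mean signal and median background of each spot, and no other offset was tried. How much of its changes came from the offset was not tested, nor was the cause for the other settings. Signal over background limits Ccl3, Ccl4, Ccl7 by its second probe, Ccl12, Ccl22 and Ccr2, which were at background on some or all normal chow arrays.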

Other observations

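The differences in the authors' value table, which holds 1 value per diet and no spread, were 4.82 for Ccl2, 3.89 for Ccl4, 1.51 for Ccl5, 1.60 for Ccl6, 0.23 for Ccl7 and -0.35 for Ccl9 on the log2 scale. Ccl3, Ccl12, Ccl22 and Ccr2 have no value in that table, and neither does the Ccl7 probe A_51_P436652 that separated the diets widely.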
